A study of Mus musculus with 6 samples.

Results

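Expression of 5 members of the interferon-inducible HIN-200 gene family, Ifi203, Ifi204, Ifi206, Ifi209 and Mndal, was described in 6 RNA-seq libraries of mouse lung group 2 innate lymphoid cells (ILC2s). The genes were picked by name from the 17438 genes of the deposited table, all 5 were present, and they were picked because family members near Cd48 differ between the genotypes in opposite directions. Their levels in WT and Cd48 KO libraries are therefore given as a description, without a test. These lymphocytes of barrier tissues make type 2 cytokines when epithelial IL-33 reaches them. Per the labels, sorted lung ILC2s of strain CB57BL/6 were treated with IL-33 in both genotypes, and RNA was taken from cultured cells. One group was wild type (WT, n = 3) and the other carried the allele B6.129S4-Cd48tm1Rsr/EpaulJ (Cd48 KO, n = 3), whose name gives 129S4 as the donor strain of a targeted Cd48 gene on a B6 background. The series' design text speaks of duplicates, whereas the titles number 3 libraries in each genotype. The labels give no age and do not say that the libraries came from separate animals, so p-values measure how far these samples scatter, and part of that scatter may be technical. The disruption of Cd48 and any 129S4 sequence linked to it are carried by the same samples and cannot be told apart.

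HIN-200 proteins carry a DNA-binding HIN domain, most often joined to a PYRIN domain through which they assemble with other proteins. The best-known member, AIM2, detects DNA in the cytosol and builds an inflammasome that activates caspase-1, and IFI204, often set beside human IFI16, takes part in interferon induction through STING. The genes are induced by interferons, and in the mouse they form a cluster of near copies on the distal part of chromosome 1, as Cd48 and the other SLAM receptor genes do.

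In the GENCODE M21 annotation (GRCm38/mm10) the cluster held 13 HIN-200 genes over 680.9 kb of chromosome 1, from 173350879 to 174031810, and it began 1.65 Mb after the end of Cd48. From the side of Cd48 the order was Aim2, Ifi206, Ifi214, Ifi213, Ifi209, Ifi208, Ifi207, Ifi204, Mndal, Ifi211, Ifi203, Ifi202b and Ifi205. Ifi206 lay at 173468485 to 173491041 (minus strand), Ifi209 at 173630917 to 173647928 (plus strand) and Ifi204 at 173747293 to 173766943 (minus strand). Ifi203 lay at 173920407 to 173942672 (minus strand). GENCODE draws Mndal from 173849126 to 173942491 on the same strand, a span that takes in the whole of Ifi211 and nearly all of Ifi203, whereas RefSeq ends Mndal at 173880382, before Ifi211. Reads in that shared span therefore depend on the annotation used for counting, which is not given in the sources used here. Counts of Ifi213 were not analysed here, so it appears below by its sequence only, and the other 12 genes had counts.

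The promoters of the family are shown first because they carry an element that the choice of the genes did not use. RefSeq's promoter table (GRCm38.p6, 250 bases before to 50 after each transcript start) held 12 of the 13 genes, all but Ifi204. The interferon response element core, GAAA followed by any 2 bases and GAAA again, was searched on both strands. It was present in 9 of these 12 genes, counting any of their promoters, and in 3.44% of all 32851 promoters of the same length. The other core searched, TTCNNNGAA (GAS, read the same on both strands), was found in the Ifi202b promoter alone among the 12 genes and in 8.3% of all promoters. The 2 cores overlapped in none of the 12 genes. In the windows below, capitals mark the 11 bases that align with the element of Ifi203, on the strand of the gene.
Ifi206, chr1:173491338-173491368, minus strand: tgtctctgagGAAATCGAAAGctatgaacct
Ifi208, chr1:173673597-173673627, plus strand: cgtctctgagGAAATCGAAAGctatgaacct
Ifi213, chr1:173599325-173599355, minus strand: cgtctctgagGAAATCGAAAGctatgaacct
Ifi214, chr1:173536016-173536046, minus strand: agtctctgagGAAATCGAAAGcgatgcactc
Ifi209, chr1:173630770-173630800, plus strand: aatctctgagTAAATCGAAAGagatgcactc
Ifi207, chr1:173741830-173741860, minus strand: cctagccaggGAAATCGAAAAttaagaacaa
Mndal, chr1:173880203-173880233, minus strand: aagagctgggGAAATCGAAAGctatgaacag
Ifi203, chr1:173942507-173942537, minus strand: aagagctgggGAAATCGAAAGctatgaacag
Ifi211, chr1:173913063-173913093, minus strand: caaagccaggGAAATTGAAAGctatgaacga
Ifi205, chr1:174031869-174031899, minus strand: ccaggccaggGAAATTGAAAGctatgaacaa
The 11 bases GAAATCGAAAG were identical in Ifi206, Ifi208, Ifi213, Ifi214, Mndal and Ifi203. No other gene's promoter among the 32851 held them on either strand, so the share of promoters with this run was 0.018%; the run was chosen after the sequences had been seen. Counted from the first capital, Ifi209 differed from Ifi203 by G1T, which removes the match to the core, Ifi207 by G11A, and Ifi211 and Ifi205 each by C6T. Aim2 and Ifi202b had no comparable stretch.

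The promoters fell into 4 sets of close copies. Over the whole 300-base window Mndal and Ifi203 were identical at 282 of 299 aligned positions (94.3%), and Ifi214 and Ifi209 at 287 of 300 (95.7%). Ifi206, Ifi208 and Ifi213 matched one another at 98.5% to 98.9%, and Ifi207, Ifi211 and Ifi205 at 86.6% to 93.1%, whereas Ifi209 and Mndal matched at 55.2% and Ifi206 and Ifi209 at 60.9%. The Mndal and Ifi203 pair and the Ifi214 and Ifi209 pair are printed in full, 5′ to 3′ on the strand of the gene, with the aligned 11 bases in capitals, because these pairs hold the 3 most abundant of the 5 genes.
Mndal, chr1:173880138-173880437, minus strand: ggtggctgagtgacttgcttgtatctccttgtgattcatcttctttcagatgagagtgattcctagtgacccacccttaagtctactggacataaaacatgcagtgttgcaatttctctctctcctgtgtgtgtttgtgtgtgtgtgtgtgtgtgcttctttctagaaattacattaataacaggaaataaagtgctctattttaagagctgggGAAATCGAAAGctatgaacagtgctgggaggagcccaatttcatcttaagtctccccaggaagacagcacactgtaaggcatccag
Ifi203, chr1:173942443-173942742, minus strand: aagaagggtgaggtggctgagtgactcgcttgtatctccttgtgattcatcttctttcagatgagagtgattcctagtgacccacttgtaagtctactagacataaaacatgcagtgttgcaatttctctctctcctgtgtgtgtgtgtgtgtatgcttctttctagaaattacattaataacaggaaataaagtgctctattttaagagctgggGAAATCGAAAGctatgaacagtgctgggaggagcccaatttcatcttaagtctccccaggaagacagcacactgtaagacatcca
Ifi214, chr1:173535908-173536207, minus strand: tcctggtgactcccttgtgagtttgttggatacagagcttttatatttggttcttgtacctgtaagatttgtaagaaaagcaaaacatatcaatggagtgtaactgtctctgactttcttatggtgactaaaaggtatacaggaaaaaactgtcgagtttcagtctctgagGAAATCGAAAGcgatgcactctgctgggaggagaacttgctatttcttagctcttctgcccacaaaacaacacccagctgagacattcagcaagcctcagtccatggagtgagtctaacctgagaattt
Ifi209, chr1:173630609-173630908, plus strand: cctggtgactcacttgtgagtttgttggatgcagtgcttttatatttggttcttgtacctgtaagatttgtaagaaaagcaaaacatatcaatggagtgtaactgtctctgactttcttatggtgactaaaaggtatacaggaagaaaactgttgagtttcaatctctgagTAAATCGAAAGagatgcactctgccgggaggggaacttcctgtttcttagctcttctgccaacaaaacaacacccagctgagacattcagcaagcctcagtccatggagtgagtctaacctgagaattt
The Ifi203 promoter shown is the second of 2 RefSeq promoters of that gene, and the other, at 173942623 to 173942922, held no match to the interferon response element core. Mndal also had 2 RefSeq promoters. The one not shown, at 173879909 to 173880208, held 1 match to that core, on the opposite strand. The Ifi205 promoter held a further match on the opposite strand, after the transcript start. The start of Mndal in GENCODE, 173942491, lies inside the Ifi203 promoter shown. A match is a description of the letters in these windows and not a test of binding.

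Cd48, the targeted gene, was read first as a check of the labels. It stood at 57.2, 46.5 and 41.7 CPM (counts scaled to a common library size) in WT libraries 1, 2 and 3 (WT1 to WT3), and at 4.54, 5.61 and 4.42 CPM in KO libraries 1, 2 and 3 (KO1 to KO3). It was lower in every KO library (log2 fold change -3.33, SE 0.20, edgeR quasi-likelihood test with Benjamini-Hochberg adjustment, adjusted p = 0.00285). This call was lost without KO1 (adjusted p = 0.0754), without KO3 (0.0775) and with the replicate block (0.129), with folds of -3.28, -3.27 and -3.32. Library totals ran from 14928623 to 27450400 estimated counts. WT1 stood apart, with correlations of 0.922 to 0.932 across 13317 genes with the other 5 libraries, against 0.98 to 0.987 among those 5. WT1 held less of long transcripts: the median gene of at least 8000 bases lay 0.93 lower on the log2 scale than in WT2 and WT3, and the median of genes of 2000 to 4000 bases, the class of most of the HIN-200 transcripts, lay at 0.00. Values without WT1 are given beside some of the results, but not beside group means, sums, shares or levels per kb, which include WT1. Of the ILC2 markers, Gata3, the transcription factor of the lineage, stood between 783 and 1390 CPM, and Il5 at 5610 CPM or more, in all 6 libraries. Thy1 was the lowest of these markers, at 6.07 to 12.2 CPM.

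Ifi209 had the largest expression difference of the 5 genes by CPM. It stood at 19.8, 19.9 and 21.2 CPM in WT1 to WT3 and at 1.41, 0.925 and 1.19 CPM in KO1 to KO3. The WT libraries lay close together and far above every KO library. The means were 20.3 ± 0.783 (SD, n = 3) and 1.17 ± 0.243 CPM (SD, n = 3), a 17.3-fold lower level in KO (log2 fold change -4.12, SE 0.22), and the fold was the same without WT1 (-4.12). Ifi209 is one of the PYRIN-HIN genes of the family.

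Ifi206, on the Cd48 side of Ifi209 with Ifi214 and Ifi213 between them, had reads in WT alone. It stood at 0.755, 2.86 and 2.84 CPM in WT1 to WT3, and the KO libraries were at 0. The deposited counts summed to 133 in WT against 0 in KO, so the level was at least 38.8-fold lower in KO, against 3 counts over the KO group, a bound that covers counting error only. WT1 lay 1.77 lower than WT2 and WT3 on the log2 scale, and WT2 and WT3 differed by little.

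Mndal, a gene of a myeloid nuclear differentiation antigen-like protein, was lower in KO by a smaller factor. It stood at 15.7, 16.1 and 19.3 CPM in WT1 to WT3 and at 12.8, 11.3 and 12.6 CPM in KO1 to KO3. The groups did not overlap, and the gap between the lowest WT library and the highest KO library was smaller than the range within WT. The means were 17.0 ± 1.97 and 12.2 ± 0.83 CPM (SD, n = 3 each), or 1.4-fold (log2 fold change -0.49, SE 0.16), and -0.54 without WT1.

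Ifi203 and Ifi204 differed the other way. Ifi203 stood at 11.3, 16.8 and 17.8 CPM in WT1 to WT3 and at 25.3, 20.5 and 20.2 CPM in KO1 to KO3. The highest WT library lay below the lowest KO library, WT1 was the lowest of the 6 and KO1 the highest. The means were 15.3 ± 3.51 and 22.0 ± 2.87 CPM (SD, n = 3 each), a 1.43-fold higher level in KO (log2 fold change 0.51, SE 0.21), which was 0.34 (SE 0.14) without WT1, a 1.27-fold difference.

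Ifi204 was at 0 in WT1 and WT2 and at 0.18 CPM in WT3, and at 1.29, 1.3 and 1.87 CPM in KO1 to KO3. Its deposited counts were 0, 0 and 5.026 in WT and 21.091, 21.104 and 33 in KO, so every KO library exceeded all WT counts together. The means were 0.06 ± 0.104 and 1.48 ± 0.333 CPM (SD, n = 3 each), and the fitted log2 fold change of 4.10 (SE 0.86) rests on 1 WT library with reads. It was 3.66 without WT1, 7.57 without WT3, when every remaining WT library was at 0, and 3.09 with a prior count of 2. In bulk RNA, fewer cells of a type and less RNA per cell cannot be told apart for any of these genes.

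**Figure D1:**
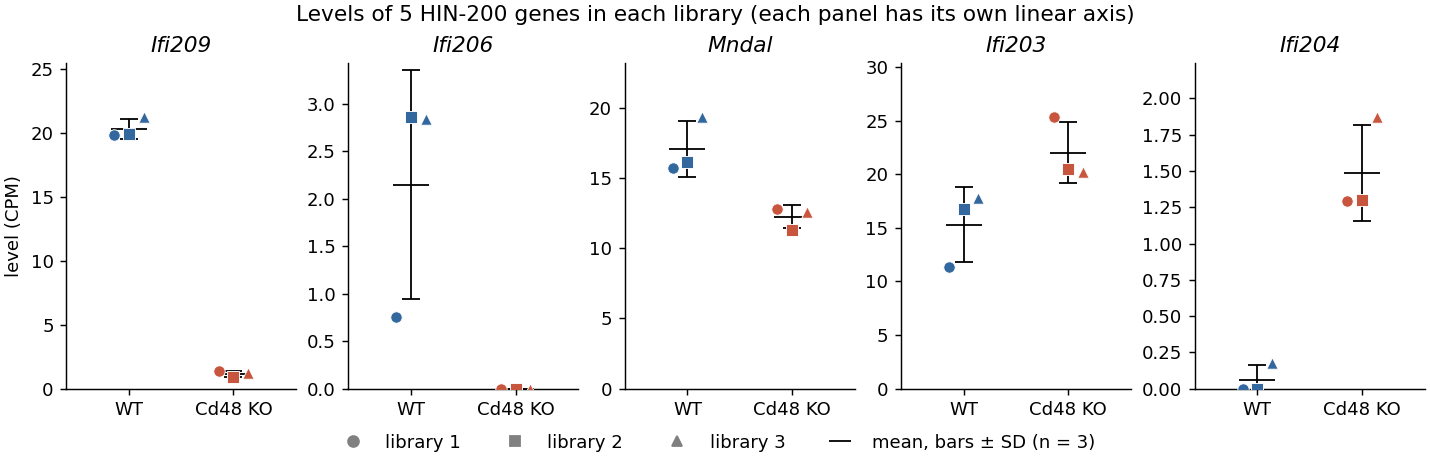
Level in CPM of each of the 5 HIN-200 genes, 1 panel a gene with its own linear axis, with WT and Cd48 KO on the horizontal axis; symbols are libraries 1, 2 and 3, and lines are the mean ± SD (n = 3). Ifi209 lies between 19.8 and 21.2 CPM in WT and at or under 1.41 CPM in KO, while Ifi203 lies at 20.2 CPM or more in KO and at or under 17.8 CPM in WT.

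None of the 5 genes had overlapping groups, 2 with KO above and 3 with KO below. The background share of non-overlap was 19.3% of the 13317 genes tested (10.8% with KO above, 8.55% with KO below), and these genes were picked for such differences, so their count is given for description. Without WT1 the shares of non-overlap were 30.0%, 16.3% and 13.7%. All 5 passed the filter on low counts, Ifi204 through its KO libraries and Ifi206 through its WT libraries.

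Levels were compared between genes per kb of the longest annotated transcript. In WT the order was Mndal at 8.4 CPM per kb, Ifi209 at 5.9, Ifi203 at 4.07, Ifi206 at 0.707 and Ifi204 at 0.0261, and no neighbours in this order had overlapping ranges over the libraries. In KO the order was Mndal at 6.04 and Ifi203 at 5.86 CPM per kb, whose ranges overlapped, then Ifi204 at 0.646, Ifi209 at 0.342 and Ifi206 at 0. Ifi209 thus took the second place in WT and the fourth in KO.

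The sum over the 5 genes was 47.5, 55.6 and 61.3 CPM in WT1 to WT3 and 40.8, 34.0 and 35.9 CPM in KO1 to KO3, without overlap. Without Ifi209 the sums were 34.5 ± 6.26 CPM in WT and 35.7 ± 3.29 CPM in KO, and the groups overlapped. The makeup of the sum differed: Ifi209 gave 37.3% ± 3.76 of it in WT and 3.16% ± 0.388 in KO, and Ifi203 gave 27.6% ± 3.45 and 59.5% ± 2.92 (SD, n = 3 each). Mndal kept a like share, 31.1% ± 2.13 and 33.3% ± 1.90. The ratio of Ifi203 to Ifi209, which does not depend on library size, was 0.569, 0.843 and 0.839 in WT and 18.0, 22.1 and 17.0 in KO.

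**Figure D2:**
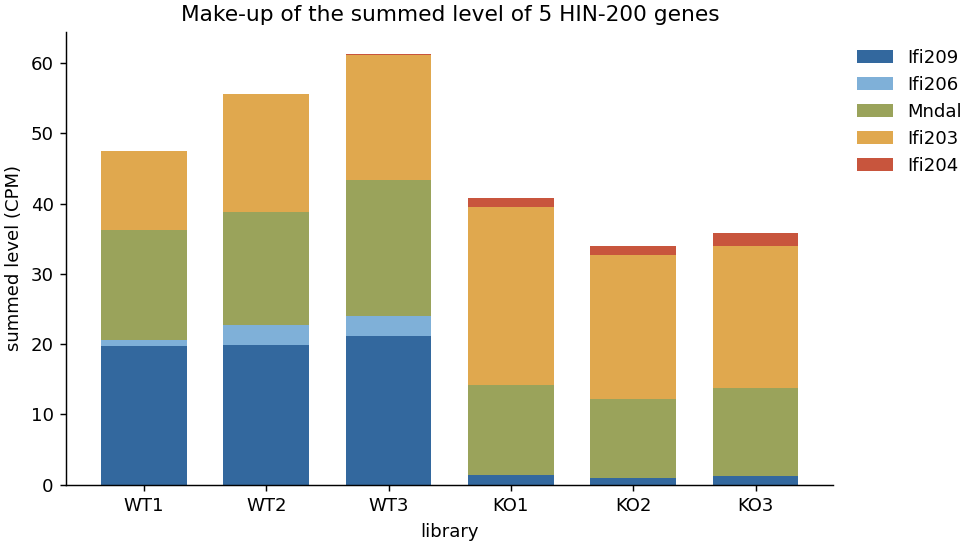
Summed level of the 5 genes in CPM (vertical axis) in each library (horizontal axis), with each stacked colour the level of 1 gene. The Ifi209 layer, 19.8 to 21.2 CPM in WT, is at most 1.41 CPM in KO, and the total runs from 47.5 to 61.3 CPM in WT and from 34.0 to 40.8 CPM in KO.

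Reads of such close relatives can be divided by the counter. Of the 30 deposited values of the 5 genes, 20 were not whole within 0.001 and 5 were at 0; Aim2 and Cd48 had only whole values. Of the 50-base stretches in the annotated transcripts of each gene, 33.4% in Ifi209 also occurred in another HIN-200 gene, 19.2% in Ifi204, 17.7% in Mndal, 15.8% in Ifi206 and 12.2% in Ifi203. The Ifi209 stretches were all shared with Ifi214, and 14.8% of those of Ifi204 were shared with Ifi211. The sharing fell into 3 blocks. Ifi206, Ifi213 and Ifi208 shared stretches among themselves, Ifi209 and Ifi214 with each other, and Ifi207, Ifi204, Mndal, Ifi211, Ifi203, Ifi205 and the pseudogene Ifi203-ps among themselves. Pairs that share stretches were therefore also summed. Ifi209 with Ifi214 gave 20.9 ± 0.914 CPM in WT and 1.34 ± 0.427 in KO, Ifi206 with Ifi208 gave 3.12 ± 1.45 and 0.0975 ± 0.0877, and Ifi204 with Ifi211 gave 0.326 ± 0.254 and 1.9 ± 0.378. These pairs kept the direction of the single gene. The picked gene gave most of each sum in the genotype where it was higher, so this says little about how reads were divided. Ifi206 also shared 10.9% of its stretches with Ifi213 and 9.8% with genes outside the family, which no sum covers. Ifi203 with Mndal, which overlap on the same strand in GENCODE and share 3.3% of the stretches of Ifi203, gave 32.3 ± 5.07 and 34.2 ± 3.4 CPM, and the groups overlapped. How reads were divided was not tested, and the values of all 5 genes are uncertain to that extent. Whether linked 129S4 sequence aligns to the mm10 genome, which is that of C57BL/6J, as B6 sequence does was not tested.

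**Figure D3:**
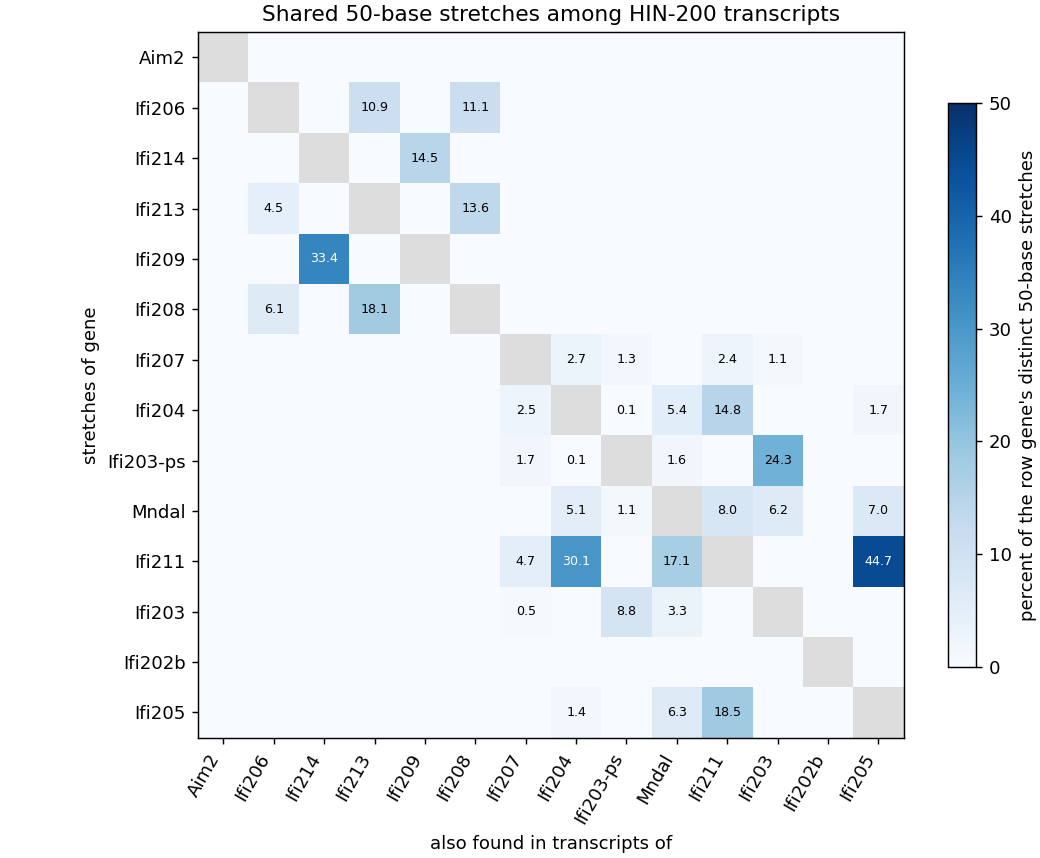
Percent of the distinct 50-base transcript stretches of each gene (rows) that also occur in transcripts of another (columns), with genes in chromosomal order and the diagonal in grey. The shared stretches form 3 blocks with none shared between blocks, and the Ifi209 row holds 1 value, 33.4% with Ifi214.

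The other 7 HIN-200 genes in the table are the pathway's remaining members. Aim2, the cytosolic DNA receptor and the most abundant of them, stood at 18.6, 28.7 and 21.2 CPM in WT and at 23.8, 27.8 and 22.2 CPM in KO (log2 fold change 0.10, SE 0.20, edgeR adjusted p = 0.855), with overlapping groups. Ifi208 stood at 0.755, 0.666 and 1.48 CPM in WT and 0.123, 0 and 0.17 CPM in KO (log2 fold change -3.24, SE 0.80, edgeR adjusted p = 0.689; without WT1 -3.39, adjusted p = 0.0579). Neither gene passed, and they were the only 2 of the 7 tested. Ifi208 alone had an unadjusted p under 0.05, as 918 of all 13317 genes did, and DESeq2 and limma-voom called neither.

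Of the genes that did not pass the filter, Ifi214 stood at 0.48, 0.6 and 0.756 CPM in WT and 0.368, 0 and 0.113 in KO. Ifi207 stood at 0.343, 0.266 and 0.432 CPM in WT and 0.123, 0 and 0.113 in KO. Both had non-overlapping groups with KO below, as 8.55% of all tested genes had, at levels under the filter. With Ifi206 and Ifi209, which were picked for their differences, and Ifi208, all 5 measured genes from Ifi206 to Ifi207 had KO below WT, which is given as a description of this stretch and not as a result of a test. Ifi214 shares stretches with Ifi209, and Ifi208 with Ifi206. In WT3 the deposited counts were 20.749 for Ifi214 and 589.251 for Ifi209, and 40.688 for Ifi208 and 79.312 for Ifi206. Such fractional values mark divided reads, so these 5 genes are not separate observations. Ifi202b, a HIN-only member, had 0 counts in WT and 17 in KO, at least 6.48-fold higher against 3 counts over WT. Ifi211 and Ifi205 had overlapping groups at levels under 0.8 CPM.

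**Figure D4:**
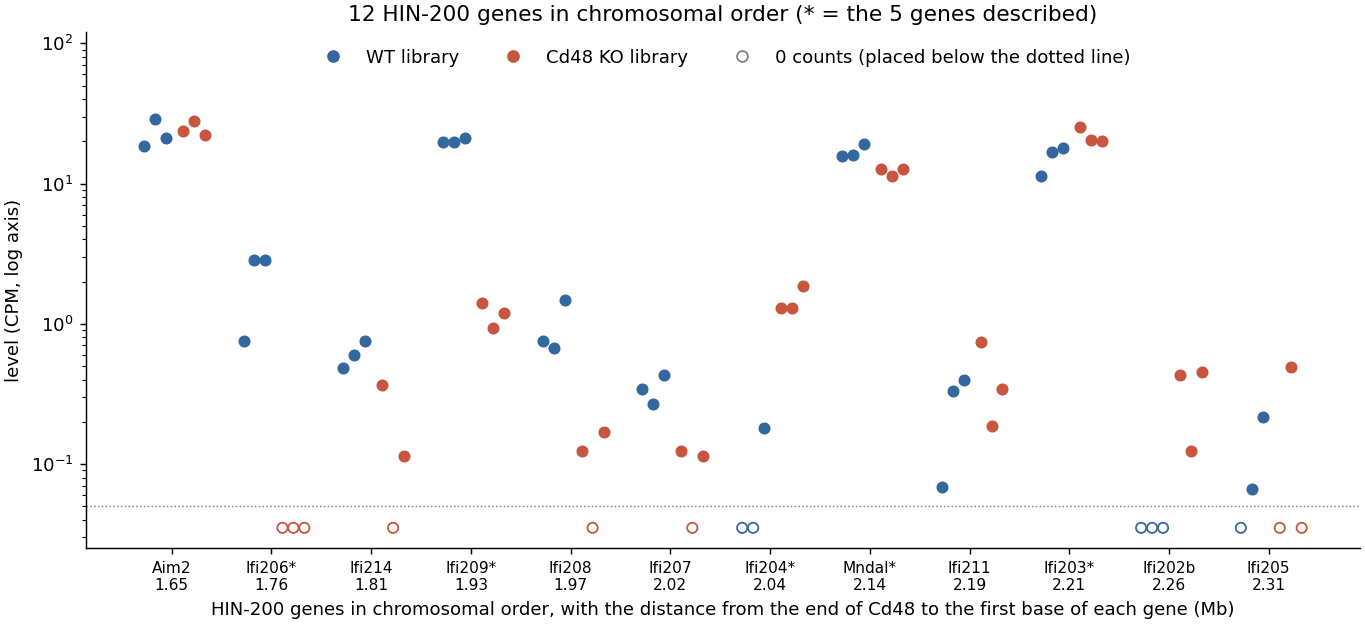
Level in CPM (log axis) of 12 HIN-200 genes in each library, in chromosomal order with the distance from the end of Cd48 in Mb; filled points are libraries with reads, open points below the dotted line are libraries at 0, and asterisks mark the 5 genes described. From Ifi206 to Ifi207, and for Mndal, every KO point lies below every WT point of the same gene. The reverse holds for Ifi204, Ifi203 and Ifi202b, the last with all WT libraries at 0.

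Interferon induces these genes, so lists of the pathway were read for the same libraries. Of 51 interferon-stimulated genes outside the family, 45 were measured and 39 tested; 0 passed edgeR's test, which called 4 of all 13317 genes (0.03%; 0.015% higher and 0.015% lower in KO). At an unadjusted p under 0.05 there were 8 of the 39, against 918 of all 13317 genes. Of the 39, 16 had a positive and 23 a negative log2 fold change. The median was -0.10, against 0.00 over all genes. Without WT1, 15 of 40 had an unadjusted p under 0.05, against 1865 of all 13643 genes. Of the 40, 12 had a positive and 28 a negative log2 fold change, and the median was -0.15. Limma-voom over all 6 libraries also gave 15 at an unadjusted p under 0.05, against 1927 of all 13317 genes. DESeq2, limma-voom and edgeR without WT1 each called 3, all lower and all of them Ifi47, Isg20 and Rtp4 (0.811%, 0.713% and 1.82% of all genes were called in either direction, and 0.39%, 0.33% and 0.652% lower; without WT1, 1.17% were called higher). Ifi47, an immunity-related GTPase, stood at 138, 118 and 109 CPM in WT and at 71.5, 66.1 and 66.6 CPM in KO (log2 fold change -0.85, SE 0.13, adjusted p = 0.464; without WT1 -0.74, adjusted p = 0.000515). Isg20, an RNA exonuclease gene, had a log2 fold change of -1.17 (edgeR adjusted p = 0.555; without WT1 -1.12, adjusted p = 0.0277). Rtp4 had one of -2.25 (edgeR adjusted p = 0.623; without WT1 -1.76, adjusted p = 0.0417). The most abundant listed genes were Lgals3bp (0.22, adjusted p = 0.69), Lgals9 (-0.10, adjusted p = 0.756) and Sp100 (-0.30, adjusted p = 0.69), all by edgeR.

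Of 33 measured genes of cytosolic DNA sensing and inflammasomes 31 were tested, and 0 passed edgeR's test (5 at an unadjusted p under 0.05), nor did any pass with DESeq2, limma-voom or without WT1, with a median log2 fold change of -0.04. The most abundant were Hmgb1 (-0.23, adjusted p = 0.724), Casp8 (-0.03, adjusted p = 0.919) and Lrrfip1 (0.24, adjusted p = 0.696). Of 18 interferon receptor and STAT genes, which carry the interferon signal to the nucleus, 0 passed edgeR's test, with a median of -0.12, and none passed with DESeq2, limma-voom or without WT1. The number at an unadjusted p under 0.05 was 2 with edgeR, 3 with DESeq2, 6 with limma-voom and 5 without WT1. Over all 13317 genes the number was 918 with edgeR, 1189 with DESeq2 and 1927 with limma-voom, and without WT1 it was 1865 of 13643. The most abundant were the kinase gene Jak1 (log2 fold change 0.18, edgeR adjusted p = 0.715), Stat3 (0.09, adjusted p = 0.787) and the feedback inhibitor Socs1 (-0.24, adjusted p = 0.69).

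Of the genes within 1 Mb of the cluster 9 were measured, all on the Cd48 side, and of the 5 tested 0 passed edgeR's test (1 at an unadjusted p under 0.05), with a median log2 fold change of -0.10. Without WT1, 3 of 6 had an unadjusted p under 0.05 and the median was -0.42. Over all genes, 918 of 13317 had an unadjusted p under 0.05, and 1865 of 13643 without WT1. The most abundant were Tagln2 (log2 fold change -0.10, edgeR adjusted p = 0.831; without WT1 -0.27, adjusted p = 0.154), Pigm (0.16, adjusted p = 0.701) and Dusp23. Dusp23, a phosphatase gene and the 1 with an unadjusted p under 0.05, stood at 10.3, 4.93 and 5.83 CPM in WT and 2.21, 1.48 and 2.1 CPM in KO (log2 fold change -1.87, SE 0.36, edgeR adjusted p = 0.555). Dusp23 was called lower without WT1 (-1.48, adjusted p = 0.0213), and DESeq2 and limma-voom called it too.

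The genes with the most similar pattern were ranked by the root mean square difference of centred log2 CPM over the 6 libraries, among genes whose mean level reached 5 CPM. Ifi209 lay closest to Cd48 (0.47), then Tgtp1 (1.19) and Dapk3 (1.27). Ifi206 lay closest to Ifi209 (0.60), then Cd48 (0.84) and Tgtp1 (1.44). Ifi204 lay closest to Fn3krp (0.61), then Wdfy1 (0.68) and Adgrf5 (0.94). Wdfy1 stood at 48.2, 45.2 and 45.9 CPM in KO and at or under 9.61 CPM in WT. Ifi203 lay closest to Pde4b (0.05), Ubox5 (0.06) and Plod2 (0.06), and Mndal to Ppp1r9b (0.06), Cep85 (0.06) and Gm49909 (0.07). The libraries and depths were shared by all genes of this ranking. The 5 genes were picked for differing between the genotypes, and Cd48 was the targeted gene. The ranking over these same libraries therefore restates that choice, and shared regulation was not tested.

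The summed markers of each other cell type lay below the ILC2 sum of 10100 to 14000 CPM in WT and 11500 to 12300 CPM in KO, and some differed between the genotypes. Il5 alone gave most of the ILC2 sum, 5610 to 9830 CPM in WT and 6870 to 7670 CPM in KO. It was called higher in KO by edgeR without WT1 only. T cell markers (6 of 8 measured) summed to 189 to 246 CPM in WT and 132 to 152 in KO, and epithelial markers (5 of 5) to 26.1 to 70.4 and 9.75 to 23.0, both without overlap, with Krt8 at 0 in all KO libraries. Trbc2, Trbc1 and Cd3g made up most of the T cell sum. In every library Trac stood at or under 0.343 CPM, Cd3d at or under 0.576 and Cd3e at or under 2.66. The T cell receptor subunit gene Cd3g and the epithelial adhesion gene Epcam were called lower in KO by DESeq2, by limma-voom and by edgeR without WT1, Trbc2 by the last alone, and none of the 3 by edgeR over all 6 libraries. Macrophage and monocyte markers (7 of 12) summed to 54.9 to 247 and 14.4 to 127 CPM, with overlap and Mrc1 at 0 in all KO libraries. Chil3 gave most of that sum. B cell markers (3 of 6) summed to 26.0 to 46.7 and 25.1 to 30.7 CPM, and NK markers (2 of 5) to at most 0.863 and 1.17, both with overlap. Dendritic markers (4 of 6) summed to 58.6 to 66.0 and 51.9 to 58.5 CPM, nearly all of it Xcr1, also without overlap. The 1 measured endothelial marker, Pecam1, stood at 28.6 to 39.7 and 40.3 to 42.0 CPM, without overlap and with KO above. Of the single genes tested, 19.3% had no overlap. The part of these cells in the HIN-200 levels was not tested.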

How the data were processed

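The authors deposited estimated counts per gene and library, not normalized as judged from the values (60.2% of non-zero values whole within 0.001). STAR 2.7.8, Partek 10.0, DESeq2 and mm10 are named, per the submitters' processing notes; their roles, the counter, annotation and strandedness: not given in the sources used here. Labels describe cDNA from a low-input kit, whose amplified reads carry no stated molecular identifiers. Counts were rounded and tested in R 4.3.3 with edgeR 4.0.16 (robust quasi-likelihood, TMM, filterByExpr with a minimum count of 10 and total of 15, genotype only, Benjamini-Hochberg, adjusted p under 0.05). DESeq2 1.42.0 and limma 3.58.1 were alternatives. CPM uses TMM-adjusted library sizes. Replicate pairs differed beyond sampling noise (chi-square per gene 5.52 to 149). The members and lists were chosen with earlier results of these data known. Named genes were Cd48, all HIN-200 genes, neighbours that were called or bordered the family, up to 3 called and the 3 most abundant of each list, and the 3 most similar genes. Dusp23, and the calls without WT1, were named after their values were seen. Symbols matched GENCODE M21 for 16986 of 17438 genes. Protein identity was not analysed here.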

Additional observations from a re-analysis of the deposited data

How the results depend on the processing

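All 5 genes kept their direction under every alternative run, which were the other size factors, filters, tools, prior count, the replicate block and leaving out each library. Of 142 alternative values, 126 stayed near the main value and 16 moved. Many of the 142 were counts of calls, which cannot reverse and were often 0 against 0. None of the log2 values reversed, but the 5 genes were picked for their directions and Ifi206 was at 0 in every KO library. The tally is therefore a description and not support. The count of called genes (4) became 108 with DESeq2, 95 with limma-voom and sample quality weights, and 0 with the replicate block (776 at an unadjusted p under 0.05). Deviations of same-numbered libraries from their genotype means correlated at -0.046, -0.036 and -0.009, and those of differently numbered libraries at -0.034 to 0.066. These values showed no sign of pairing by number, but with 3 libraries in each genotype they cannot settle it. Leaving out 1 library gave 0 to 248 calls: 248 without WT1, and 0 without KO1 (662 unadjusted) or KO3 (335). Interferon-stimulated calls were 3 with DESeq2 and 3 with limma-voom, and 0 to 3 leaving out 1 library (3 without WT1). Neighbour calls were 1 with DESeq2 and 1 with limma-voom, and 0 to 1 leaving out 1 library (1 without WT1). The log2 fold change of Ifi204 (4.10) was 3.09 with a prior count of 2 and 3.66 to 7.57 leaving out 1 library, the last without WT3, when WT was at 0. That of Ifi206, fitted at -8.29 against a group at 0 and no bound, was -6.55 with limma-voom, -4.36 with a prior count of 2 and -8.73 to -7.87 leaving out 1 library. Leaving out 1 library gave 0.34 to 0.63 for Ifi203, -4.26 to -3.97 for Ifi209, -0.54 to -0.39 for Mndal and -0.66 to -0.48 for the log2 ratio of the 5-gene sum. Ifi204 and Ifi206 had no value under a mean of at least 10 CPM, which they do not reach. At these depths 3 counts are 0.108 to 0.206 CPM, which limits what can be said of Ifi204, Ifi207 and Ifi202b in single libraries.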
